A study of Mus musculus with 8 samples.

Results

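The genes described here are the potassium channel genes of the mouse, taken as every protein-coding gene of the GENCODE annotation of build mm10 (GRCm38) whose symbol starts with Kcn. There were 94 such genes among 21938 protein-coding genes, and they were read against 6 lists of ChIP-seq peaks from skeletal muscle. The peaks mark the glucocorticoid receptor (GR), a transcription factor switched on by glucocorticoid hormones, RNA polymerase II (called Pol2 here), CTCF, a protein that shapes chromatin loops, and the histone marks H3K4me3 (promoters), H3K4me1 (enhancers and other regulatory DNA) and H3K27ac (active promoters and enhancers). All libraries came from muscle nuclei of WT C57/Bl6J mice, labelled 10 to 12 weeks old in the sample records and 10 weeks old in the series text, with no treatment named. There was 1 library for each antibody. Input 1 served GR, H3K27ac, Pol2 and H3K4me1, and Input 2 served CTCF and H3K4me3. The sources used here do not give the number of mice or the muscles taken.

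Potassium channels let potassium ions leave or enter the cell and so set the resting potential of muscle fibres, end each action potential and couple excitability to the metabolic state of the fibre. Inward rectifiers hold the resting potential, the ATP-sensitive channel closes when ATP is plentiful, voltage-gated channels repolarise the membrane, and calcium-activated channels answer the calcium that drives contraction. Many other members of the family are known chiefly from neurons, heart, kidney or secretory cells. Skeletal muscle also holds vessels, nerve and connective tissue, and in such whole tissue a mark in few cells and a weak mark in many cells cannot be told apart.

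The study has no replicate of any antibody and no second condition, so nothing was tested between groups. Counts of Kcn genes are given beside the share of all 21938 protein-coding genes counted in the same way, as a description. A gene had a peak at its start when a peak shared at least 1 base with the window of 1 kb to each side of the transcription start site (TSS) of any of its protein-coding transcripts. It had a peak in its body when a peak overlapped the annotated gene, and a peak within 25 kb when a peak midpoint lay that close to a TSS. The tissue label was checked on marker genes at their starts. Pol2 peaks stood at 8 of 8 muscle fibre genes, 4 of 4 fibro-adipogenic, 2 of 6 smooth muscle or pericyte, 1 of 5 endothelial, 1 of 3 satellite cell, 1 of 4 Schwann, 1 of 4 immune, 0 of 5 neuronal, 0 of 3 heart and 0 of 2 liver genes. H3K4me1 stood at 4 of 8 fibre genes and 4 of 5 neuronal genes. H3K4me3 stood at 6 of 8 fibre, 4 of 4 fibro-adipogenic, 5 of 5 endothelial and 3 of 3 satellite cell genes. It also stood at 2 of 6 smooth muscle or pericyte, 2 of 4 Schwann, 1 of 5 neuronal and 1 of 3 heart genes. No H3K4me3 peak stood at the 4 immune or the 2 liver genes. The part of these other cell types in the results was not tested. The files give no read depth, and a gene without a peak is one where none was called.

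The sequences of 9 GR peaks near Kcn genes are shown first, as examples of the widest GR peaks at these genes and of those that hold the receptor's core motif. The 5 printed here come from the Kcn genes with the widest GR peaks within 25 kb that have the Kcn gene's TSS as the nearest protein-coding TSS, with 1 peak for each gene. The peak of the next gene in that order, Kcng4, lies in its 3′ UTR and is not printed. Each is at most the central 300 bases of a peak, shortened where an annotated UTR begins, on the plus strand of GRCm38 from the RefSeq assembly of that build. Capitals mark the core of the GR response element, ACANNNTGT, and the receptor's hexamer AGAACA, searched on both strands (TGTTCT is the hexamer on the other strand).
Kcnj12, chr11:61060623-61060922: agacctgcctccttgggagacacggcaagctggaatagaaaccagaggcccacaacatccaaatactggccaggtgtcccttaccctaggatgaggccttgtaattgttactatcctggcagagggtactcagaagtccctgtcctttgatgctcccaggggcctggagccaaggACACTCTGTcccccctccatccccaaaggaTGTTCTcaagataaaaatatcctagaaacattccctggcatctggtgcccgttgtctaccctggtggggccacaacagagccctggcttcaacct
Kcnn1, chr8:70865571-70865870: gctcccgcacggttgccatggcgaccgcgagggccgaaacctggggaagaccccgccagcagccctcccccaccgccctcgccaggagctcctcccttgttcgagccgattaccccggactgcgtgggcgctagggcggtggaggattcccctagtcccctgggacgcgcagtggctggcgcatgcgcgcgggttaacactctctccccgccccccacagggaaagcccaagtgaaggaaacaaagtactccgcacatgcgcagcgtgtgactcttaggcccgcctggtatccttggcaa
Kcnc1, chr7:46403630-46403929: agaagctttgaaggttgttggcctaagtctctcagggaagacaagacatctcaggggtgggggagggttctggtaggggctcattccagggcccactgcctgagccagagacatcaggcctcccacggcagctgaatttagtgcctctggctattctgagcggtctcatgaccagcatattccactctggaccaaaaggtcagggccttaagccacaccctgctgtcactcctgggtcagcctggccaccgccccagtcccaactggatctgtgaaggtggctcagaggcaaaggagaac
Kcnj11, chr7:46100394-46100627: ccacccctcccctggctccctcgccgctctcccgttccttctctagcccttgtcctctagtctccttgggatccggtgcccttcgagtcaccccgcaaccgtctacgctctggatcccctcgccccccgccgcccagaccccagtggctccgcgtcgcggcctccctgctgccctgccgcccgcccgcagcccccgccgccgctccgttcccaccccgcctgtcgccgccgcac
Kcnj2, chr11:111065972-111066163: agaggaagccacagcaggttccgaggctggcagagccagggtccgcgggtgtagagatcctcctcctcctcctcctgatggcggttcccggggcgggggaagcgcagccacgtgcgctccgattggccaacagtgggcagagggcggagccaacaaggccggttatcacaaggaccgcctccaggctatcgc
The peak in the Kcnj12 gene held both the core and the hexamer, and the other 4 stretches held neither. Those at the starts of Kcnj11 and Kcnj2 and upstream of Kcnn1 were rich in CpG, with 26, 14 and 26 CpG in the 234, 192 and 300 bases shown. The stretches within Kcnj12 and Kcnc1 held 2 and 3 CpG in 300 bases each.

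The other 4 are the widest further GR peaks within 25 kb of a Kcn TSS that hold the core. Each of them lies nearer to the TSS of another gene, named after the Kcn gene.
Kcnn1 and Arrdc2, chr8:70833561-70833860: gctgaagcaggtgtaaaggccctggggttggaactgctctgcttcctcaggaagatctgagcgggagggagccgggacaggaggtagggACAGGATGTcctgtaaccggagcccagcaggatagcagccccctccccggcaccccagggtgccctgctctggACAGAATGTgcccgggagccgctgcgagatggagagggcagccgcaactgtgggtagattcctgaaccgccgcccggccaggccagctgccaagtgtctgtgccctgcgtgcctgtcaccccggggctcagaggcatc
Kcnn1 and Arrdc2, chr8:70834094-70834393: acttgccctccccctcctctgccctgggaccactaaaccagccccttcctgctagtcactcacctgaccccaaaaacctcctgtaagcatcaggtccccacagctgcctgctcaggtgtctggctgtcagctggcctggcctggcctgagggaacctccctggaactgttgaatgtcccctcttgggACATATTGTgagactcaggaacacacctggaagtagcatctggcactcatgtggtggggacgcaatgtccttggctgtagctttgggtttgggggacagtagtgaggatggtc
Kcnh3 and Mcrs1, chr15:99249075-99249374: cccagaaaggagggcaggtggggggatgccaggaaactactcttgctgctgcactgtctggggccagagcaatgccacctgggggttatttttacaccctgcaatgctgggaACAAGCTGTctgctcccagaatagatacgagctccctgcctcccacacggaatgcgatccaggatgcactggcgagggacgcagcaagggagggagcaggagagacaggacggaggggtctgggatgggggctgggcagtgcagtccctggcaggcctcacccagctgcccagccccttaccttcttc
Kcnj11 and Abcc8, chr7:46116100-46116399: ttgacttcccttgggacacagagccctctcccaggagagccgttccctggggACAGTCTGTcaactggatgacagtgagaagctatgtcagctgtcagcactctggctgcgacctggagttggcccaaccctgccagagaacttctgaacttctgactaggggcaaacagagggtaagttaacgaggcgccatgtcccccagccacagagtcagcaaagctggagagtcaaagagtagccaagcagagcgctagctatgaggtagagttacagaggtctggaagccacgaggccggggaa
The first of them holds the core 2 times. Abcc8 encodes the sulphonylurea receptor SUR1, a regulatory subunit of ATP-sensitive channels, and Arrdc2 an arrestin-domain protein. The match to a motif is a description of the letters and not evidence of a bound site.

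At their starts, Kcn genes carried Pol2, H3K27ac and GR less often than the whole gene set and H3K4me1 more often. Pol2 peaks stood at 12 of 94 Kcn genes (12.8%), against 46.6% of all protein-coding genes. H3K27ac stood at 18 (19.1%), against 51.9%. GR stood at 15 (16%), against 42.6%. The shares for H3K4me3 and CTCF lay nearer to those of all genes. H3K4me3 stood at 48 (51.1%), against 60.9%, and CTCF at 5 (5.32%), against 6.52%. H3K4me1 went the other way, at 73 Kcn genes (77.7%) against 64.3%. With only the H3K4me3 peaks of the highest score, 50% of that list, H3K4me3 stood at 11 Kcn starts (11.7%), against 46.1% of all genes. With the widest 50% of the GR peaks GR stood at 5 (5.32%), against 30.3%, and with the widest 50% of the Pol2 peaks Pol2 stood at 7 (7.45%), against 30.9%. CTCF stood at 2 (2.13%), against 4.53%, with the 50% of the highest score.

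Sodium, calcium, chloride, HCN and TRP channel genes, 77 in all, lay between the Kcn genes and the whole gene set for Pol2 (19 genes, 24.7%), GR (17, 22.1%), H3K27ac (26, 33.8%), H3K4me3 (43, 55.8%) and H3K4me1 (56, 72.7%). A list of 21 genes of muscle excitability and potassium handling, which holds no Kcn gene, had Pol2 at 18 starts, H3K27ac and H3K4me3 at 20 each, H3K4me1 at 21 and GR at 14. It includes the muscle chloride channel Clcn1 and the calcium release channel Ryr1, each with GR, Pol2, H3K27ac, H3K4me3 and H3K4me1 at its start.

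**Figure D1:**
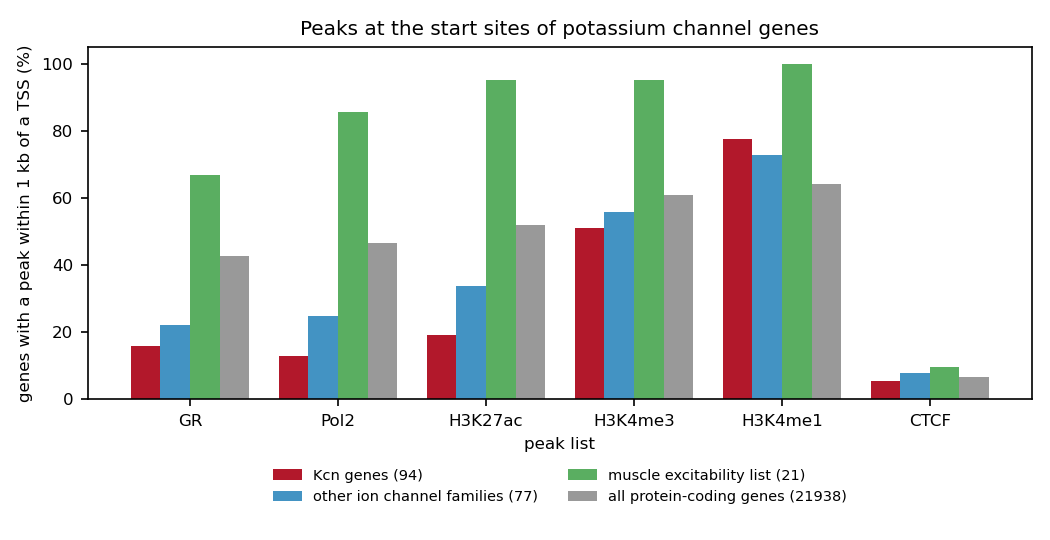
Bars give the percent of genes (vertical axis) with a peak within 1 kb of a TSS for each of the 6 peak lists (horizontal axis), in 94 Kcn genes, 77 other ion channel genes, 21 muscle excitability genes and all 21938 protein-coding genes. Kcn genes lie at 12.8% for Pol2 against 46.6% of all genes, and at 77.7% for H3K4me1 against 64.3%.

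The marks fell into 5 combinations at Kcn starts. H3K4me3, H3K27ac and Pol2 stood together at 12 Kcn genes (12.8%), against 45.7% of all genes. A further 6 (6.38%, against 5.67%) had H3K4me3 and H3K27ac without Pol2. H3K4me3 without H3K27ac marked 30 (31.9%), against 9.6%. H3K4me1 without H3K4me3 marked 26 (27.7%), against 7.81% for genes with H3K4me1 or H3K27ac but no H3K4me3. The remaining 20 (21.3%) had none of the 3 histone marks, against 31.2%.

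The 12 genes with all 3 marks included Kcnj2, Kcnj11, Kcnj12, Kcna7, Kcnc1, Kcnc4, Kcng4, Kcnk5, Kcnma1 and Kcnn1. All 12 Kcn genes with Pol2 at a TSS also had H3K27ac, H3K4me3 and H3K4me1 there, and 10 of them had GR, which is 83.3% against 85.4% of all genes with Pol2 at a TSS. Kcnc4 and Kcnn1 were the 2 without GR at a start. The 6 with H3K4me3 and H3K27ac but no Pol2 included Kcna5, Kcnq5, Kcnk6, Kcnn2 and Kcnab2. Of these, Kcnab2 has the start of another gene, Nphp4, only 271 bases away.

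**Figure D2:**
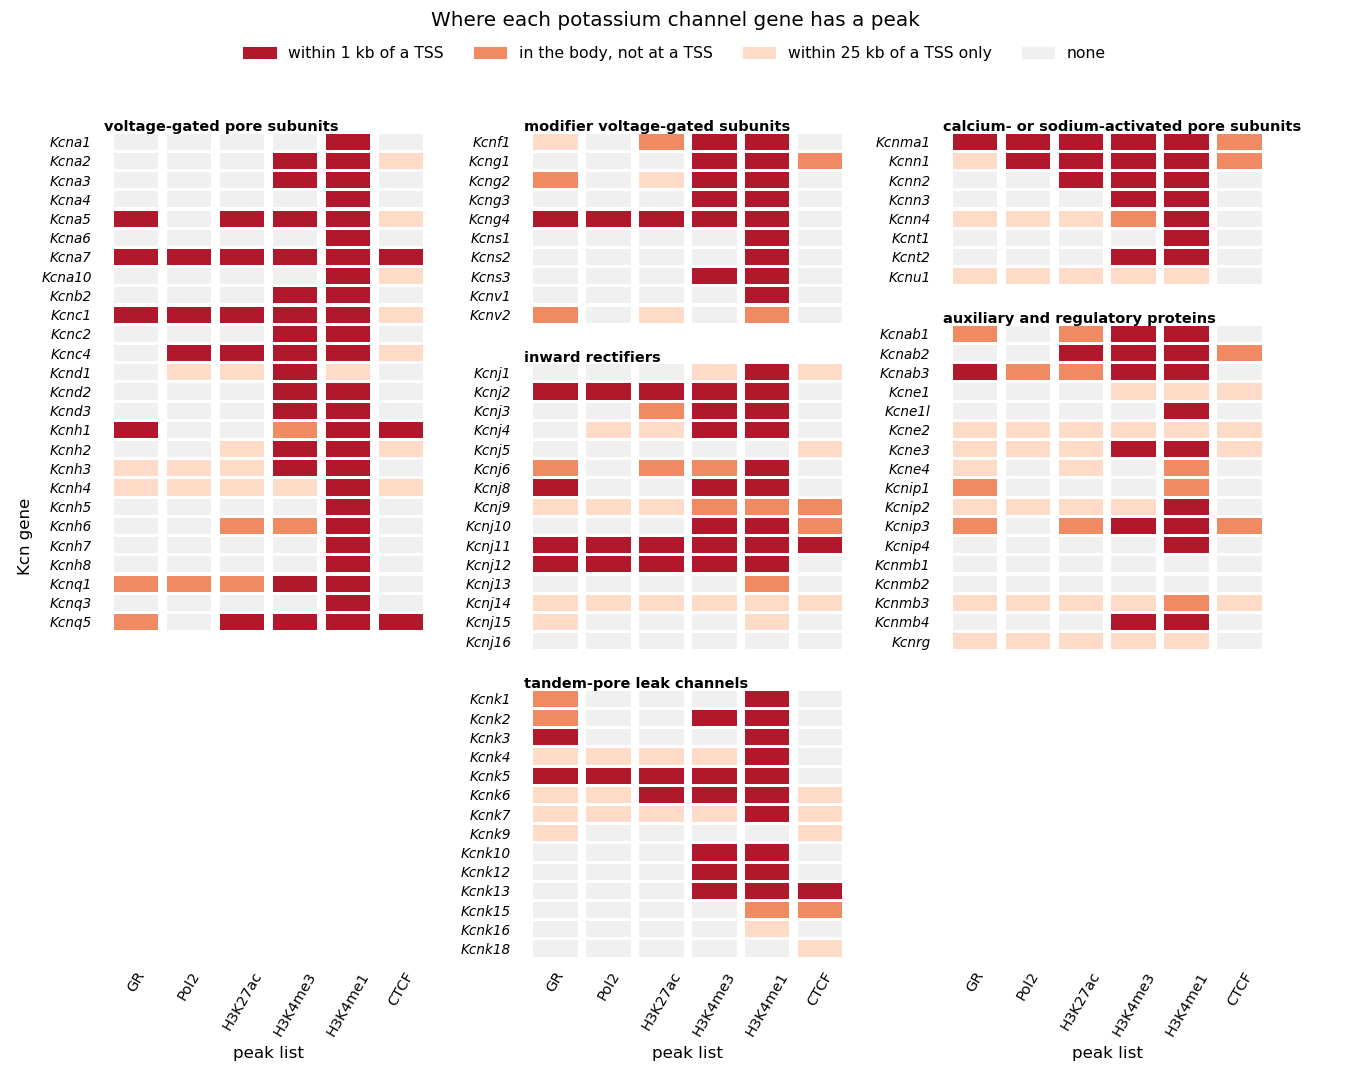
Each row is a Kcn gene, grouped by role, and each column a peak list; the darkest squares mark a peak within 1 kb of a TSS, the middle shade a peak in the gene body but not at a TSS, the palest red a peak within 25 kb of a TSS only, and grey none. The H3K4me1 column is dark for 69 of the 90 genes shown and the Pol2 column for 10.

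Among the 15 inward rectifier genes, Pol2 stood at 3 starts, GR at 4, H3K4me3 at 7 and H3K4me1 at 9. Kcnj2 (chr11:111066164-111076821, plus strand) encodes Kir2.1, a channel of the resting potential. Its start carried GR, Pol2, H3K27ac, H3K4me3 and H3K4me1, and its H3K4me3 peak of 4279 bases was wider than 99.5% of those at all genes with one. That peak had a fold enrichment of 15.7, the authors' value, which is only at the 19.6 percentile of the same genes. A GR peak of 328 bases lay 42 bases upstream of the TSS, and 1 of 123 bases lay 20710 bases downstream of it, past the gene's end. Pol2 peaks covered 10.4% of the gene. Its neighbour Kcnj16, with starts no closer than 42304 bases, had no peak of any list within 25 kb. Only 3 Kcn genes had none, the others being Kcnmb1 and Kcnmb2.

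Kcnj12 (chr11:61022564-61071131, plus strand) encodes Kir2.2, a further resting-potential channel. It had 5 GR peaks in its body, of 251, 296, 571, 158 and 218 bases. The 251-base peak lay at the upstream start, which also carried Pol2, H3K27ac, H3K4me3 and H3K4me1. The other 4 lay in chromatin with H3K4me1 and H3K27ac but no H3K4me3, from 6073 to 78 bases upstream of the downstream start. That start, at chr11:61065804, had GR, H3K27ac and H3K4me1 but neither Pol2 nor H3K4me3 within 1 kb. The 571-base peak, shown above, was the widest GR peak whose nearest TSS belonged to a Kcn gene, and it overlapped a Pol2 peak. The H3K4me3 fold of Kcnj12, 37.9, was the highest of any Kcn gene.

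Kcnj11 (chr7:46093953-46100764, minus strand) encodes Kir6.2, the pore of the ATP-sensitive channel of muscle fibres. Its 4 Pol2 peaks covered 31.5% of the gene, the largest share of any Kcn gene, and H3K27ac covered 63.2%. All 6 lists had a peak at its start, which held for only 1 other Kcn gene, Kcna7. GR peaks of 357, 338, 221 and 173 bases lay in the gene, and 2 more, of 227 and 420 bases, lay upstream within 25 kb but nearer to Abcc8. Abcc8 itself, whose nearest annotated TSS is 5069 bases away, had H3K4me3 and H3K4me1 at a start. It had no GR, Pol2 or H3K27ac at any start, with 11 GR peaks within 25 kb of a start. Kcnj8, for the Kir6.1 pore of vascular ATP-sensitive channels, had a GR peak of 145 bases 37 bases from its TSS with H3K4me3 (fold 7.5) and H3K4me1. Its nearest Pol2 peak was 63396 bases away. Kcnj14 had 4 GR peaks within 25 kb, all nearer to other genes, and no histone mark at its start.

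The 30 voltage-gated pore genes had H3K4me1 at 29 starts, H3K4me3 at 18, H3K27ac at 8, GR at 6, Pol2 at 5 and CTCF at 3. Kcnd1 was the one without H3K4me1. The 5 with Pol2 included Kcna7, Kcnc1 and Kcnc4. Kcna7, for the muscle channel Kv1.7, had an H3K4me3 peak of 3208 bases, 2 Pol2 peaks in the body covering 14.7% of it, and H3K27ac over 75% of it. Its GR peak was 138 bases wide and lay 818 bases inside the gene. Another 3 GR peaks within 25 kb were nearer to Snrnp70 or Ntf5.

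Kcnc1 (chr7:46396497-46438704, plus strand) encodes Kv3.1, a fast channel for repolarisation. It had 19 H3K27ac peaks in its body covering 39.1% of it, and 3 GR peaks in the body, of 123, 412 and 165 bases, with midpoints 351, 6132 and 13233 bases from the nearest of its 2 starts. The nearest other gene was Myod1, the muscle regulator, whose TSS is 20023 bases away and whose promoter carried a GR peak of 469 bases. Kcnc4, for Kv3.4, had Pol2, H3K27ac and a 2713-base H3K4me3 peak but no GR peak within 25 kb.

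Kcna5 and Kcnq5 carried H3K4me3 and H3K27ac without Pol2. Kcna5, for Kv1.5, had a GR peak of 217 bases 182 bases upstream of its TSS that lay in H3K4me1 only, and its H3K4me3 fold was 4.61. Kcnq5, for Kv7.5, spans 564 kb and had 4 GR peaks of 192 to 294 bases in its body, the nearest with its midpoint 227953 bases from a TSS. The other 3 were nearer to Khdc1b. Of the 26 genes with H3K4me1 and no H3K4me3 at any start, 4 were Kcna genes (Kcna1, Kcna4, Kcna6 and Kcna10) and 6 were Kcnh genes (Kcnh1 and Kcnh4 to Kcnh8).

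Kcnq1, for Kv7.1, had H3K4me3 and H3K4me1 at a start but no GR, Pol2 or H3K27ac there. Its body held 5 GR peaks of 123 to 317 bases, all in the last part of the gene, with midpoints 280192 to 307420 bases from the nearest Kcnq1 TSS. All 5 were nearer to the TSS of Cdkn1c, 43548 to 70776 bases away. The body held 1 Pol2 peak, at chr7:143296418-143296610. That peak covers the annotated 5′ end of the antisense RNA gene Kcnq1ot1, which runs over chr7:143203458-143296549 on the minus strand and also had H3K27ac and H3K4me3 within 1 kb of its end. Pol2 at this position can belong to either strand, since the peak list carries none. A like case was Kcnab3, whose only Pol2 peak in the body, at chr11:69332145-69332331, lay beside the 5′ end of the antisense gene Kcnab3os (chr11:69329825-69332122).

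The 10 modifier subunits, which alter other voltage-gated channels, had 1 gene with Pol2 and GR at its start. This was Kcng4 (chr8:119623854-119635680, minus strand), for Kv6.4. Its H3K4me3 peak had a fold of 6.8, the lowest of the 12 Kcn genes with Pol2, and H3K27ac covered 27.4% of the gene. It had 8 GR peaks within 25 kb, of 126 to 327 bases, of which 3 had Kcng4 as the nearest gene. The other 5 lay at or beyond its 3′ end, in H3K4me1 and H3K27ac, and 4 of them overlapped Pol2 peaks. Adad2 had the nearest TSS for these 5, between 5950 and 11194 bases away.

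The 14 tandem-pore leak channel genes, which set background conductance, had Pol2 at 1 start, that of Kcnk5. Kcnk5 also had GR, H3K27ac, H3K4me3 (fold 21.8) and H3K4me1 there, with a GR peak of 176 bases. Kcnk3 had a GR peak of 123 bases 85 bases from its TSS with H3K4me1 and no H3K4me3. Only Kcnh1 shared that pattern, with a GR peak of 170 bases 41 bases from its TSS that also overlapped a CTCF peak. Kcnk4 and Kcnk7 each had 6 GR peaks within 25 kb, and none of the 12 had its nearest TSS at the Kcn gene.

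Of 8 calcium- or sodium-activated pore genes, Kcnma1 and Kcnn1 had Pol2 at a start. Kcnma1 (chr14:23289431-24014491, minus strand) encodes the large-conductance BK channel and spans 725 kb. Its body held 13 GR peaks, the most of any Kcn gene, with 29 H3K27ac and 63 H3K4me1 peaks but only 2 Pol2 peaks and 1 H3K4me3 peak. The GR peaks were 123 to 442 bases wide; 6 lay in H3K4me1 with H3K27ac, 5 in H3K4me1 only, 1 at the promoter and 1 in none of these marks. Of its 5 groups of start sites at least 1 kb apart, only the second carried GR, Pol2, H3K27ac or H3K4me3. The second Pol2 peak, 79091 bases from the nearest TSS, overlapped the 442-base GR peak.

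Kcnn1, for the small-conductance SK1 channel, had 10 GR peaks within 25 kb, the most of any Kcn gene in that window, including the widest of all at 685 bases. Only 1 of the 10, the 418-base peak 2463 bases upstream shown above, was nearest to Kcnn1. Another 7 were nearest to Arrdc2 and 2 to Ccdc124. A Pol2 peak of 3085 bases in the same stretch was also nearest to Arrdc2. Kcnn2 and Kcnn3, for SK2 and SK3, had H3K4me3 at a start (folds 19.6 and 10.4), no Pol2 peak there, and no GR peak within 25 kb.

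Among 17 auxiliary and regulatory genes, none had Pol2 at a start, 1 had GR (Kcnab3), 1 had H3K27ac (Kcnab2) and 6 had H3K4me3. Kcnmb1, for the beta subunit of the BK channel in smooth muscle, had no peak of any list within 25 kb, and its nearest H3K4me1 peak was 29276 bases away. Kcne3, for a small subunit known as a partner of Kv3.4 in muscle, had H3K4me3 (fold 5.03) and H3K4me1 at its start. Its 1 GR peak within 25 kb lay nearest to Lipt2.

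By the median, H3K4me3 at Kcn starts was narrower and weaker than at the whole gene set. The strongest peak of each of the 48 Kcn genes with one had a median fold of 11.9 (range 3.86 to 37.9) and a median width of 842.5 bases. The 13369 genes with one had medians of 33.5 and 1309 bases. The share with a peak of 2000 bases or more was alike, at 7 of the 48 Kcn genes (14.6%) against 14.4%. With Pol2 at a start as well, the 12 Kcn genes had a median fold of 21.2, against 38.5 for all such genes, but a median width of 1986.5 bases against 1435. Of these 12, 6 had a peak of 2000 bases or more (50%), against 18% of all genes with H3K4me3 and Pol2. They were Kcnj2, Kcnj11, Kcna7, Kcnc4, Kcnc1 and Kcnma1. The 36 Kcn genes with H3K4me3 and no Pol2 had medians of 9.16 and 711.5 bases, against 12.1 and 782.

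**Figure D3:**
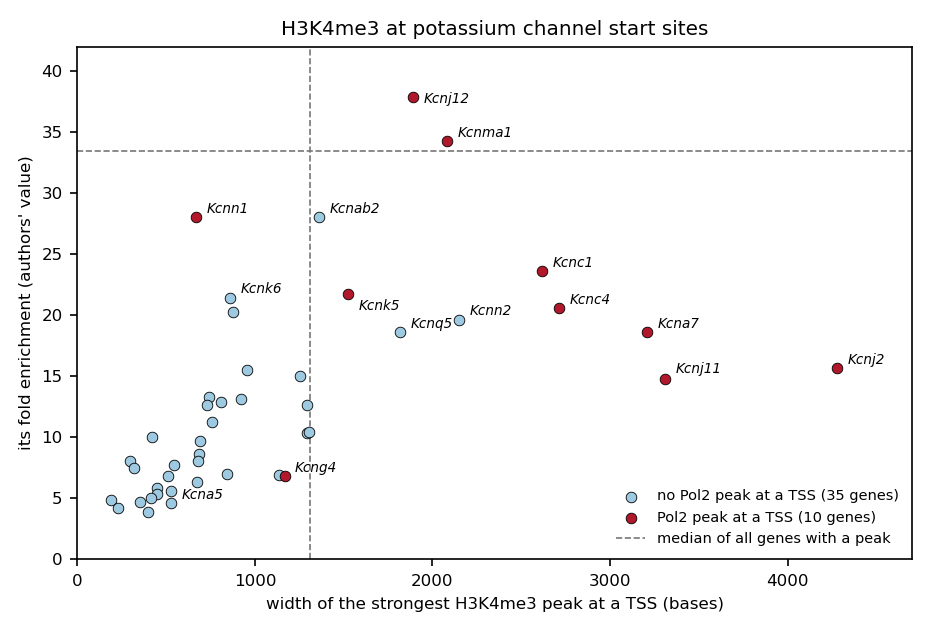
Each point is 1 of 45 Kcn genes shown with an H3K4me3 peak at a TSS, by the width of its strongest such peak in bases (horizontal axis) and the authors' fold enrichment (vertical axis), coloured by Pol2; dashed lines are the medians of all 13369 genes with such a peak (1309 bases and a fold of 33.5). The 6 genes with Pol2 and a peak of 2000 bases or more lie to the right, and 43 of the 45 points lie below the fold median.

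Genes were also set beside others of like H3K4me3 strength. The quartiles of fold over all genes placed 37 of the 48 Kcn genes in the lowest, with folds up to 19.6. In that quartile GR stood at 8 Kcn genes (21.6%), against 25.1% of all genes in it. Pol2 stood at 5 (13.5%) against 29.9%, and H3K27ac at 8 (21.6%) against 45.1%. The second quartile held 9 Kcn genes, of which 3 had GR (33.3% against 72%), 5 had Pol2 (55.6% against 81.7%) and 8 had H3K27ac (88.9% against 93%). No Kcn gene was in the highest quartile. The 2 in the third, Kcnj12 and Kcnma1, had all of these marks.

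The share of Kcn genes with Pol2 at any TSS was alike at CpG-rich and CpG-poor promoters. A promoter was called CpG-rich when the ratio of observed to expected CpG was at least 0.6. The ratio was read in the 300 bases around the annotated 5′ end of the gene. This held for 33 Kcn genes (35.1%) and 44.4% of all genes. Peaks were counted at any TSS, so some genes were classed by a start other than the one with the peak. Pol2 stood within 1 kb of the 5′ end itself in only 9 Kcn genes. Pol2 stood at 4 of the 33 CpG-rich Kcn genes (12.1%), against 76% of all CpG-rich genes, and at 8 of the 61 CpG-poor ones (13.1%), against 23.2%. H3K4me3 stood at 21 CpG-rich Kcn genes (63.6%, against 93.2%) and at 27 CpG-poor ones (44.3%, against 35.2%). H3K4me1 stood at 31 (93.9%, against 91.2%) and 42 (68.9%, against 42.9%). In the same 300 bases, CAGCTG, the E-box read by myogenic factors, was in 20 Kcn promoters (21.3%, against 15.6% of all), and TATAAA in 4 (4.26%, against 12.6%), on either strand. TATTTATA, a core of MEF2 sites, was in 0 of 94, against 1.57%. The GR core ACANNNTGT was in 5 (5.32%, against 5.83%) and the hexamer AGAACA in 16 (17%, against 16.9%). GGGCGG, the box read by Sp1, was in 46 (48.9%, against 43%) and CCAAT, read by NF-Y, in 27 (28.7%, against 39%).

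**Figure D4:**
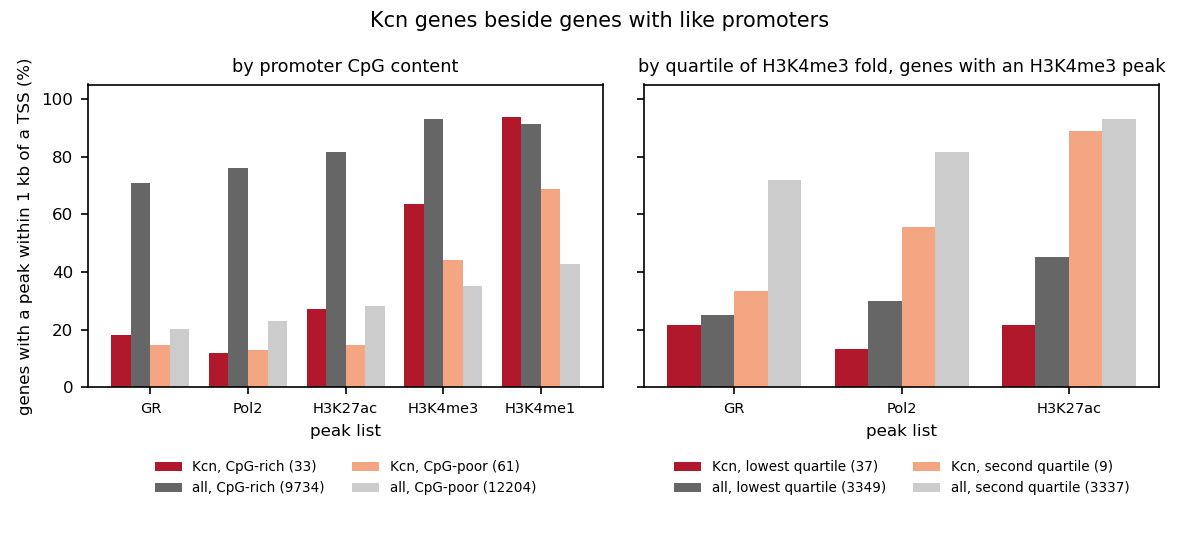
Bars give the percent of genes with a peak within 1 kb of a TSS (vertical axis) for each peak list (horizontal axis), in Kcn genes and all genes split by promoter CpG content (left) and, among genes with H3K4me3, by the lowest and the second quartile of H3K4me3 fold (right). In the lowest quartile GR is at 21.6% of Kcn genes and 25.1% of all genes, and Pol2 is at 13.5% and 29.9%.

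Kcn genes are long, with a median of 30.8 kb against 17.4 kb. GR peaks lay in 23 Kcn bodies (24.5%), against 45.2% of all genes, and Pol2 in 14 (14.9%), against 46.4%. H3K27ac lay in 26 (27.7%), against 53.8%, H3K4me3 in 52 (55.3%), against 62.8%, H3K4me1 in 78 (83%), against 69.8%, and CTCF in 13 (13.8%), against 13.6%. Without 1 kb to each side of every TSS, the Kcn share lay near that of all genes for GR, Pol2, H3K27ac and CTCF. Gene length was not matched in these counts. GR lay in 17 Kcn bodies (18.1%) against 16.2%, Pol2 in 9 (9.57%) against 8.38%, and H3K4me3 in 28 (29.8%) against 23.2%. H3K4me1 lay in 62 (66%) against 61.8%, and CTCF in 11 (11.7%) against 9.7%. H3K27ac lay in 20 (21.3%) against 23.1%. In whole bodies of genes of like length the Kcn share for GR stayed lower. Among genes of 50 to 200 kb, GR lay in 4 of 18 Kcn bodies (22.2%) against 63.6%. Among the longest genes, of 200 kb and more, it lay in 7 of 18 (38.9%) against 61.5%.

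The 23 genes with GR in the body held 59 such peaks, of which 26, in 9 genes, lay over 25 kb from every TSS of the gene. None of these 26 overlapped H3K4me3. Of them, 9 lay in H3K4me1 with H3K27ac, 13 in H3K4me1 only and 4 in none of the 3 marks. Besides Kcnma1, Kcnq1 and Kcnq5, the gene with most was Kcnab1, whose 4 GR peaks of 127 to 252 bases all lay that far from its starts.

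Within 25 kb of a TSS, GR peaks were near 40 Kcn genes (42.6%), against 58.5%. Pol2 was near 30 (31.9%), against 57.9%, H3K27ac near 41 (43.6%), against 63.9%, and H3K4me3 near 63 (67%), against 70.8%. H3K4me1 was near 88 (93.6%), against 77.2%, and CTCF near 31 (33%), against 28.7%. Counting only peaks with the Kcn gene's TSS as the nearest left GR near 24 Kcn genes, Pol2 near 14, H3K27ac near 24, H3K4me3 near 52, H3K4me1 near 85 and CTCF near 22. This count was not made for all genes, so whether Kcn genes differ in it is not known. Of 102 GR peaks within 25 kb of a Kcn TSS, 44 had a Kcn gene as the nearest protein-coding gene. The other 58 were nearer to a neighbour and had a median width of 245.5 bases, against 183 for the 44 and 212 for the whole GR list.

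Of the 10 Kcn genes with the widest GR peak within 25 kb, only Kcnj12 had that peak to itself. Kcnn1 (685 bases, nearest Arrdc2), Kcnip2 (573, Mgea5), Kcnh4 (506, Rab5c), Kcnc1 (469, Myod1), Kcnk4 (435, Esrra), Kcnh3 (425, Mcrs1), Kcnj11 (420, Abcc8) and Kcnmb3 (385, Zfp639) were among those that shared theirs with a closer gene. Neither this count nor the split of the 102 GR peaks by nearest gene was made for all genes. Whether Kcn genes differ from others here is not known.

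**Figure D5:**
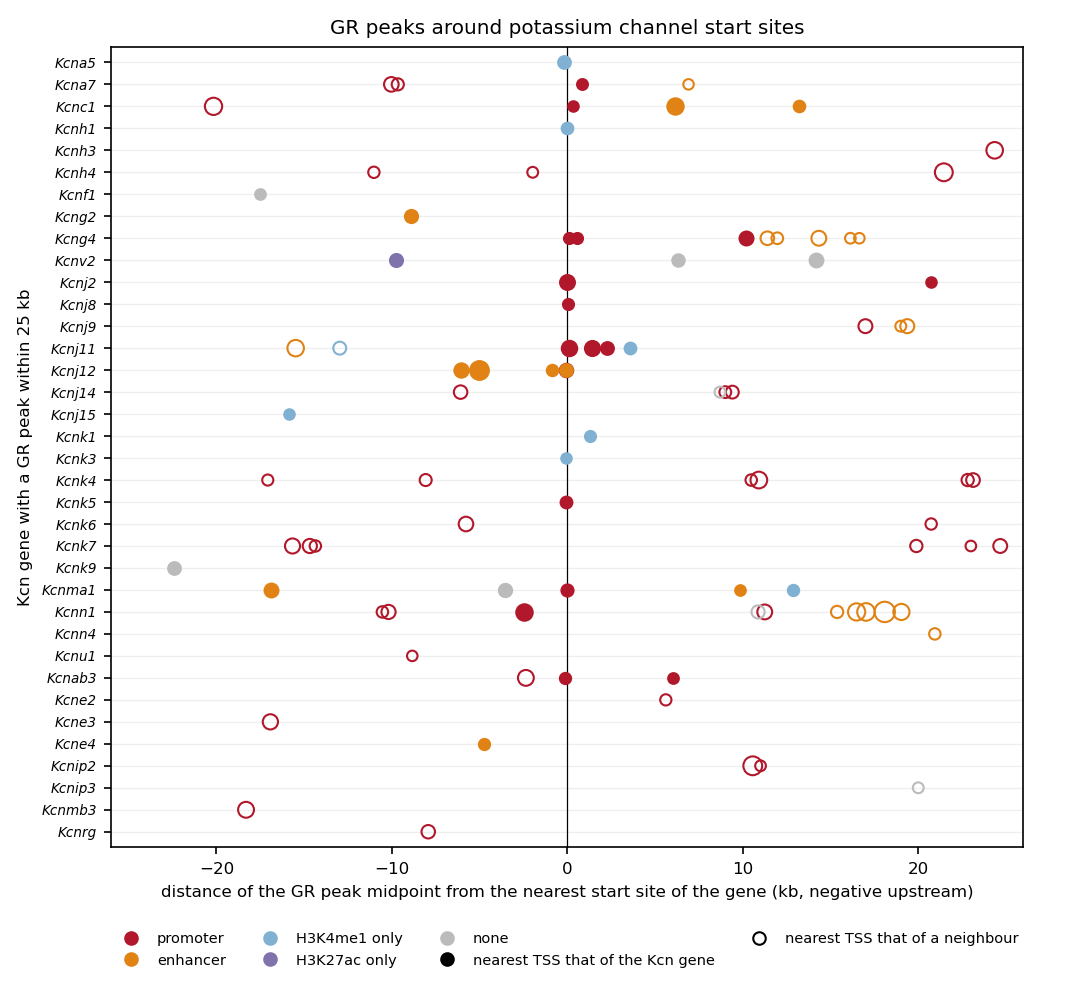
Each circle is a GR peak at its distance in kb from the nearest start of the Kcn gene named on the vertical axis, negative upstream, with area growing with peak width; colours give the chromatin class (promoter for H3K4me3, enhancer for H3K4me1 with H3K27ac and no H3K4me3, H3K4me1 only, H3K27ac only, none). Filled circles, 40 peaks shown, have the Kcn gene as the nearest gene, and open circles, 55 peaks, a neighbour.

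Of the 44 GR peaks nearest to a Kcn gene, 18 lay within 1 kb of the TSS, and 20 overlapped H3K4me3 (45.5%, against 53.2% of all GR peaks and 67.3% of those within 25 kb of any protein-coding TSS). Another 10 lay in H3K4me1 with H3K27ac (22.7%, against 19.3% and 15.2%) and 8 in H3K4me1 only (18.2%, against 19.9% and 13.5%). There was 1 in H3K27ac only (2.27%, against 0.811% and 0.645%), and 5 lay in none (11.4%, against 6.78% and 3.41%). By position, 16 were upstream, 16 intronic, 11 exonic and 1 downstream. The core ACANNNTGT was in the central 200 bases of 8 of them (18.2%), against 11.7% of all 23188 GR peaks, and AGAACA in 9 (20.5%), against 17.1%. CAGCTG was in 7 (15.9%), against 18.2%, GGGCGG in 13 (29.5%), against 36.1%, and CCAAT in 9 (20.5%), against 22.5%. Neither TATTTATA (1.16% of all GR peaks) nor TATAAA (4.67%) was in any of the 44. Of the 44, 3 belonged to Kcnv2, the Kv8.2 modifier gene, of 232, 203 and 270 bases. None of those 3 overlapped H3K4me1, H3K4me3 or Pol2.

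CTCF stood at the starts of Kcna7, Kcnj11, Kcnk13, Kcnh1 and Kcnq5, with the authors' folds of 7.34, 10.5, 6.72, 9.52 and 6.16. Inside Kcnh1, a CTCF peak of 422 bases with a fold of 42 overlapped H3K4me3 at a distance of 31504 bases from the nearest Kcnh1 TSS. That was the highest CTCF fold among the peaks in or near Kcn genes. For Kcnj5 and Kcnk18, CTCF peaks were the only ones of any list within 25 kb.

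Many Kcn genes have more than 1 start. Of the 33 with starts at least 1 kb apart, 15 had H3K4me3 at none, 13 at some and 5 at all of them. The same was not counted for all genes, so whether Kcn genes differ in this is not known. In Kcnn1, Pol2 stood at the second of 4 groups of starts, while H3K4me3 stood at the first 3. In Kcnn2, H3K27ac stood at the first of 3 and H3K4me3 at the first 2.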

How the data were processed

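ChIP-seq peak lists of GR, Pol2, H3K27ac, H3K4me3, H3K4me1 and CTCF from mouse skeletal muscle nuclei were used, with 1 library for each antibody. The inputs entered only through the authors' peak calling. bcl2fastq 2.17.1.14, Bowtie 1.0.0, MACS2 and build mm10 are named in the submitters' processing notes, without thresholds. The 23188 GR, 20192 Pol2, 44151 H3K27ac and 75523 H3K4me1 peaks were deposited as positions only. The 19811 H3K4me3 and 6526 CTCF peaks also carried, as deposited by the authors, a fold enrichment over the control (ratio), a −log10 q-value and a score that equals 10 times that value, truncated. Only the fold was printed. The score chose the strongest H3K4me3 peak of each gene, with ties settled by the fold, and ranked peaks in 1 alternative.

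Genes were the 21938 nuclear protein-coding genes of GENCODE vM21. Mitochondrial peaks were left out (8 GR, 7 H3K4me3, 5 CTCF, 1 Pol2). Peaks were joined to genes in Python 3.11.15 with numpy 2.4.6, pandas 2.3.3 and pysam 0.24.0. The joins were tested on simulated peaks. Read depth is unknown, so no floor is given. No interval is printed, and with 1 library for each antibody there was no test. Promoter windows ran from 250 bases before to 50 after the annotated 5′ end of each gene. GR windows for motifs were the central 200 bases.

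Some genes are counted but not reported one by one here, and the plots of single genes leave them out. Fuller values were given for muscle or vessel channel genes of textbook interest, genes with Pol2 or CTCF at a TSS, and the 10 genes with the most and the widest GR peaks. Kcnk3, Kcnv2, Kcnd1, Kcnab1, Kcnab2, Kcnab3 and the antisense genes were singled out after their values were seen. The members and lists were chosen with earlier results of these data known. Alternatives covered the window size, the peaks kept and the annotation.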

Additional observations from a re-analysis of the deposited data

How the results depend on the processing

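Counts of Kcn genes were recomputed under 90 alternatives, of which 72 stayed within 1.5 times of the reported count. Keeping the widest 50% of the peaks (for H3K4me3 and CTCF, those with the highest score) left GR at 5 Kcn starts (5.32%, against 30.3% of all genes), in 11 bodies (11.7%, 32.4%) and within 25 kb of 26 genes (27.7%, 45.3%). It left Pol2 at 7 starts (7.45%, 30.9%) and in 7 bodies (7.45%, 30.4%). H3K4me3 was left at 11 starts (11.7%, 46.1%), in 12 bodies (12.8%, 46.9%) and within 25 kb of 25 genes (26.6%, 56.7%). CTCF was left at 2 (2.13%, 4.53%), in 5 (5.32%, 7.7%) and within 25 kb of 19 (20.2%, 17.2%). Keeping only peaks with the Kcn gene's TSS as the nearest left GR within 25 kb of 24, Pol2 of 14 and H3K27ac of 24, with no share of all genes computed. Leaving 1 kb around each TSS out of the body left Pol2 in 9 bodies (9.57%, 8.38%) and H3K4me3 in 28 (29.8%, 23.2%). CTCF was within 10 kb of 19 Kcn genes (20.2%, 16.3%) and within 50 kb of 47 (50%, 41.6%). Each of these alternatives keeps fewer peaks or bases or changes the window, and the cause of the moves was not tested. Of 84 alternatives with a share of all genes beside them, Kcn genes lay below that share in 13 of 14 for GR, 13 of 14 for Pol2, 14 of 14 for H3K27ac, 13 of 14 for H3K4me3, 0 of 14 for H3K4me1 and 8 of 14 for CTCF. No paired analysis was possible because each antibody has 1 library and no result comes from a test. Read depth is unknown, and its part in where no peak was called was not tested.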
